A study of Mus musculus with 27 samples.

Results

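The cytosolic ribosome proteins are encoded by genes named Rps for the small and Rpl for the large subunit. Those of the acidic stalk proteins are named Rplp. These genes were followed here in mouse liver from the fasted state through refeeding, and family below means this set by name alone. The members were taken by symbol alone: Rpsa and every Rps, Rpl or Rplp symbol with a number and at most the suffix a, x or l. Symbols marked as pseudogenes by -ps were left out, and the gene type was not used. A member also needed a normalised read count of at least 10 in at least 3 of the 27 libraries. Of 81 matching symbols 78 met this, among 15932 genes that met it in the whole table and 45706 genes listed. Of the 78, 46 belong by symbol to the large subunit and 32 to the small subunit, and the latter include Rps4l, which has no annotated protein-coding transcript. The symbols left out were Rpl23a, Rpl39l and Rpl10l, with mean normalised read counts of 4.26, 1.33 and 0.185. Just inside the limit stood Rpl38 at 7.22, Rpl3l at 7.59 and Rps13 at 9.89.

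Most ribosomal proteins are present once in each ribosome, with the acidic stalk proteins Rplp1 and Rplp2 in more than a single copy. Their assembly with ribosomal RNA is among the largest investments a growing cell makes. Their mRNAs are known for a terminal oligopyrimidine (TOP) start, a C followed by a run of C and T. Through it the kinase mTOR sets how much of each mRNA is loaded on ribosomes when amino acids and insulin are present. In liver this control is known mainly as one of translation, which the amount of mRNA measured here does not show. Several of these genes also carry small nucleolar RNAs (snoRNAs) in their introns.

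Liver RNA was sequenced after mRNA selection with a stranded kit, with 3 libraries in each of 9 groups. All mice were of the strain labelled C57/BLN6 with the genotype WT, and all had been fasted for 16 h. Refed mice then had food for 30, 60, 120 or 240 min. Caged food mice had, for the same 4 times, food enclosed so that it could be sensed and not eaten. Fasted mice had the fast alone and are the control of both arms. Nothing beyond this is used of the animals. In 2 libraries of 240 min the labels conflict: the one titled caged replicate 1 has refed as its treatment, and the one titled refed replicate 3 has caged food. The titles were used. In the member that changed most often, Rpl10, the values were 350 in the library titled refed 240 min replicate 3 and 247 in that titled caged 240 min replicate 1, and the fasted libraries ranged from 238 to 275. At 30, 60 and 120 min, where title and label agree, Rpl10 ranged from 358 to 507 in refed and from 228 to 301 in caged food libraries. The value of 350 lay above this caged food range and just below the refed range, and 247 lay within the caged food range. Rpl10 was picked partly from comparisons of 240 min grouped by these same titles. Whether title or treatment label is right was not tested.

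The start sites are shown because the TOP start is the family's best known shared sequence. They are given for some of the members that changed and for those with the longest pyrimidine runs. RefSeq start sites of GRCm38.p6 were found for 58 members. Each line gives 30 bases, 15 before and 15 from the start on, and capitals mark an unbroken run of C or T that covers the first transcribed base. The first 6 belong to some of the members that changed in refed livers, and the last 3 have the longest runs.
Rpl10: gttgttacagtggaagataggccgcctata
Rpl10a: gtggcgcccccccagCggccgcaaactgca
Rpl12: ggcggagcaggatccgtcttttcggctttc
Rpl13: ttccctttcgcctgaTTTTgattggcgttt
Rpl5: tctcacgtcgcttgcgtgctggtggtgcta
Rpl22: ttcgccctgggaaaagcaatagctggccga
Rpl7a: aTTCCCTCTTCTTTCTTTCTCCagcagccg
Rpl27a: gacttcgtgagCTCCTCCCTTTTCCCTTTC
Rpl35: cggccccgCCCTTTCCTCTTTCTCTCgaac
They lie, in this order, at chrX:74270801-74270830, chr17:28328456-28328485, chr2:32961697-32961726, chr8:123102335-123102364, chr5:107900513-107900542, chr4:152325711-152325740, chr2:26910792-26910821, chr7:109519180-109519209 and chr2:39005117-39005146. The last is on the minus strand and the others are on the plus strand. Of these first 6, Rpl10a and Rpl13 had a C or T at the listed start, as runs of 1 and 4 bases. They do not stand for every member that changed: of 15 members called at a single time below that have a listed start, 6 had a C or T there, and runs of 11, 10 and 9 bases covered the start of Rpl28, Rps6 and Rps9. A run of at least 5 bases was thus found in 3 of these 15 (20%) and in 15 of the 43 members with a listed start that were not called at a single time (34.9%), a difference that was not tested. A run of at least 5 bases covered the start in 18 of 58 members (31.0%), against 9.95% of all 27025 promoters listed. The first base was C in 19 members (32.8%), against 16.2% of all promoters. RefSeq starts need not be the starts used in liver, and these letters are a description of the listed windows.

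Other motifs were searched on both strands from 250 bases before to 50 bases after the start. CCGGAAG, the core bound by ETS factors such as GABP, was present in 39.7% of the 58 members and in 9.12% of all promoters. GGGCGG, the Sp1 core, was present in 58.6% of the members and in 35.9% of all promoters. CACGTG, the E-box bound by Myc among others, was present in 8.62% of the members and in 7.24% of all promoters. AAGATGG, the core of the YY1 motif, was in 13.8% and TATAAA in 8.62% of the members, against 6.48% and 14.2% of all promoters. Of the members called at a single time CCGGAAG was present in 4 of the 15 with a promoter, Rpl11, Rpl26, Rps6 and Rps27l (26.7%), and in 19 of the 43 others (44.2%). This difference was not tested.

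The measured level of these genes was low and uneven. Together the 78 members made up 0.259% to 0.330% of all normalised read counts in a library. Refed livers of 120 min had the highest mean share, 0.314% ± 0.014 (SD, n = 3), against 0.278% ± 0.018 in fasted livers (n = 3), and the libraries of these groups did not overlap in this share. The summed values themselves did overlap, at 128936, 129809 and 134237 in refed livers of 120 min and 122512, 117617 and 131912 in fasted livers. Caged food livers of 30 min, at 0.301% ± 0.029, ranged from 0.271% to 0.330% and overlapped both. The other groups had means from 0.270% in refed livers of 30 min to 0.297% in refed livers of 240 min. The share was not tested.

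**Figure D1:**
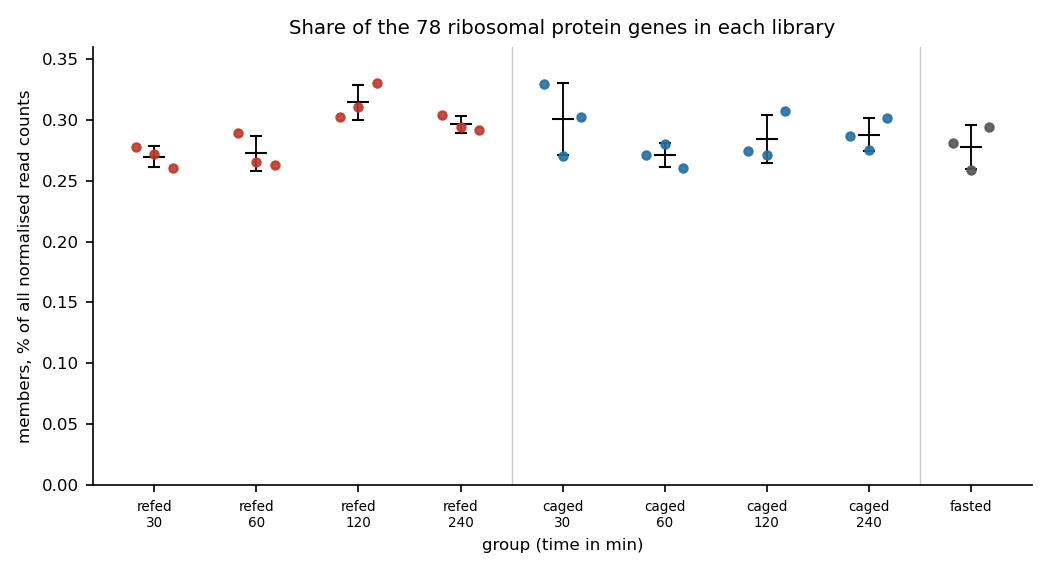
Share of the 78 members in all normalised read counts, in %, for each library (points) by group, with the mean and SD of 3 libraries (bars). The refed 120 min libraries lie between 0.303% and 0.330%, above the fasted libraries at 0.259% to 0.294%, while caged food libraries of 30 min spread over both.

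Per kb of annotated exons the mean level spanned 2875-fold within the family. Rplp1, an acidic stalk protein, was highest at 10564 per kb, followed by Rpl4, which lines the exit tunnel, at 8621 and Rpl8, near the peptidyl transferase centre, at 8596. Rps13 was lowest at 3.67, followed by Rpl3l, a muscle paralog of Rpl3, at 4.62 and Rpl19 at 11.6. Rps6, the substrate of S6 kinase, averaged 28.8 normalised read counts over the 27 libraries, and Rpsa, the laminin receptor protein of the small subunit, averaged 68.0.

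Many members share their sequence with other genes. One protein-coding transcript per gene was cut into all stretches of 51 bases, and those absent from every transcript of another annotated gene were counted. Rps27 had 1.36% such stretches, Rpl9 6.69% and Rpl10 7.88%, and 14 members had under 20%. Only 5 members reached 90%, among them Rpl3l, which shared no stretch with another gene. The median was 39.0% in the 22 members with a mean under 100 normalised read counts and 66.4% in the 31 members with a mean of at least 1000. Across the 77 members with such a transcript, Spearman's rho between this share and the mean level per kb was 0.404. All points come from the same 27 libraries, and members are not independent replicates. The table also lists 258 genes marked by symbol as ribosomal protein pseudogenes, of which 10 met the limit on values. The summed mean of these 258 was 0.380% of that of the members. Pseudogenes listed under other symbols are not in these figures. How reads with several matches were counted is not given in the sources used here. The part of shared sequence in the levels was not tested, so values below compare one gene between groups and never stand for the amount of its protein.

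**Figure D2:**
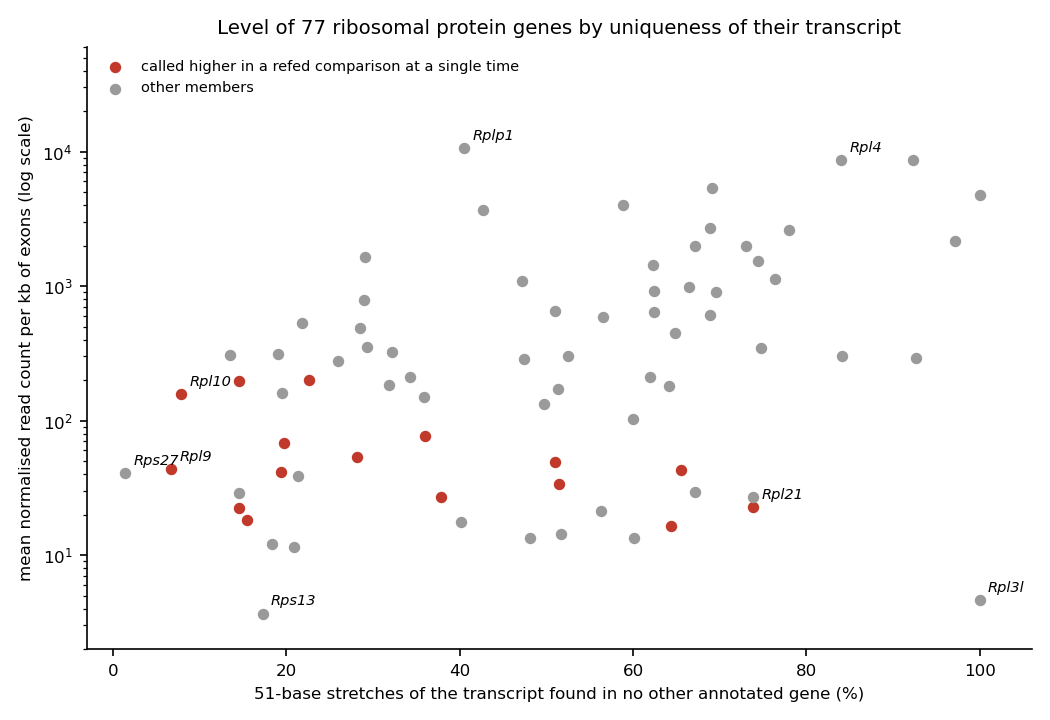
Mean normalised read count per kb of exons (log scale) against the percentage of 51-base stretches of the transcript that are found in no other annotated gene, for 77 members. The red points are the 16 of these called higher in a refed comparison at a single time, which lie at or below 200 per kb, and Rpl3l, fully unique, is among the lowest.

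Changes were tested for every gene with limma on log2 of the value plus 1. A gene was called, and is said to have risen or fallen, at a Benjamini-Hochberg adjusted p under 0.05 over all 15932 genes tested. Fold changes below are on this scale, which understates the change of low genes, and each stands with its standard error (SE) and 3 libraries a group. Refed and caged food livers are compared with the same fasted libraries, so the comparisons are not independent of each other.

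A minority of the ribosomal protein genes was called in each comparison. In refed against fasted livers, 2 of 78 members rose at 30 min (2.56%, against 1.31% of all genes tested), and none fell (0.326% of all). At 60 min 10 rose (12.8%, against 7.26%) and none fell (3.75% of all). At 120 min 5 rose (6.41%, against 7.95%) and none fell (6.13% of all). At 240 min 6 rose (7.69%, against 12.9%) and 1 fell (1.28%, against 11.4%). From 120 min on, the share of members called in either direction was below that of all genes.

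Compared with caged food livers of the same time, 1 member rose at 30 min (1.28%, against 0.207% of all) and none fell (0.0690% of all). At 60 min 10 rose (12.8%, against 6.73%) and 2 fell (2.56%, against 4.18%). At 120 min 2 rose (2.56%, against 5.98%) and none fell (5.30% of all). At 240 min 10 rose (12.8%, against 14.6%) and 2 fell (2.56%, against 12.4%). At a single time 21 members were called at least once and 57 never were.

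The median log2 fold change of the members in refed against fasted livers was 0.02 at 30 min, -0.02 at 60 min, 0.12 at 120 min and 0.03 at 240 min. At 120 min 67 of 78 members were above 0. The medians against caged food livers were -0.10, -0.08, 0.09 and 0.01 in the same order. The medians of all genes tested lay between -0.02 and 0.00 in these comparisons. With every library scaled to the same total instead, the median of all genes stood at up to 0.13, in refed against caged food livers of 60 min. The medians of the members at 60 min then turned above 0, at 0.04 against fasted livers (0.04 for all genes) and at 0.07 against caged food livers, which is below that of all genes.

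These counts rest on few libraries. Against fasted livers at 30 min they were 0 without refed 30 min replicate 3 or fasted replicate 3, and 1 without refed 30 min replicate 2 or fasted replicate 1. At 120 min they were 2 without fasted replicate 2, and 3 without fasted replicate 1 or any of the 3 refed libraries. At 240 min they were 4 without refed 240 min replicate 1 or fasted replicate 3. In the comparison with caged food livers, the call at 30 min was lost without refed 30 min replicate 2 or 3 or caged 30 min replicate 2. At 60 min 7 were called without caged 60 min replicate 1. At 120 min 1 was called without any of the 3 refed libraries or without caged 120 min replicate 2. At 240 min 7 were called without refed 240 min replicate 1, caged 240 min replicate 1 or caged 240 min replicate 3. With the libraries of 240 min grouped by their treatment label, 0, 8, 1 and 0 members were called against fasted livers at 30, 60, 120 and 240 min, and 0, 10, 1 and 0 against caged food livers.

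**Figure D3:**
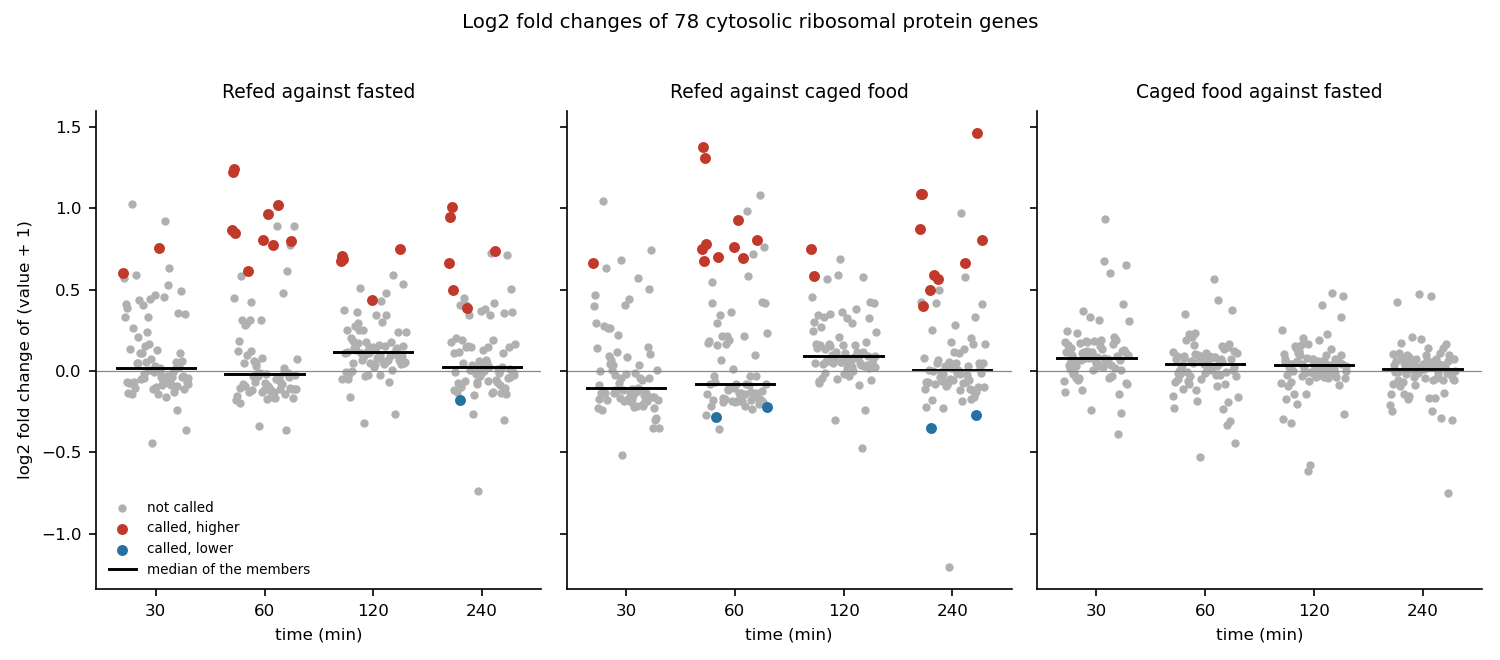
Log2 fold change (value + 1) of each of the 78 members by time in min, for refed against fasted, refed against caged food and caged food against fasted livers. Most points lie near 0 and the called rises stand well above the median line (black), which stays between -0.10 and 0.12; no member was called in caged food against fasted livers.

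Rpl10 changed in all 8 refed comparisons. It encodes a protein that joins the large subunit late in assembly, next to the peptidyl transferase centre, at chrX:74270812-74273135. Its normalised read counts were 358, 382 and 430 in refed livers of 30 min, 507, 462 and 433 at 60 min, 483, 375 and 378 at 120 min, and 458, 416 and 350 at 240 min. They were 251, 228 and 256 in caged food livers of 30 min, 242, 292 and 301 at 60 min, 233, 251 and 244 at 120 min, and 247, 225 and 194 at 240 min, and 255, 275 and 238 in fasted livers. Every refed library lay above every caged food and fasted library. Against fasted livers the log2 fold change was 0.60 ± 0.12 at 30 min (adjusted p = 0.00942), 0.87 ± 0.12 at 60 min (4.36e-05), 0.68 ± 0.12 at 120 min (0.000538) and 0.66 ± 0.12 at 240 min (0.000344). Against caged food livers it was 0.67, 0.75, 0.75 and 0.87 in the same order, with adjusted p of 0.0131, 0.000237, 0.000240 and 1.29e-05. The calls of 30 min were lost on leaving out 1 library. Against fasted livers this was refed 30 min replicate 3 (0.0593) or fasted replicate 3 (0.0781). Against caged food livers it was refed 30 min replicate 2 (0.0757), refed 30 min replicate 3 (0.113) or caged 30 min replicate 2 (0.0728). Only 7.88% of its 51-base stretches are unique, 6 annotated pseudogenes bear its name, and the gene holds Snora70.

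Rpl12 and Rpl10a, on the sides of the large subunit where factors and tRNAs enter and leave, had the largest rises of the members with a mean above 100 normalised read counts. Rpl12 forms the base of the acidic stalk and lies at chr2:32961559-32965345. Its values were 184, 162 and 163 in refed livers of 30 min, 354, 304 and 257 at 60 min, 233, 193 and 194 at 120 min, and 281, 276 and 219 at 240 min. They were 184, 118 and 121 in caged food livers of 30 min, 110, 128 and 127 at 60 min, 150, 105 and 164 at 120 min, and 133, 114 and 115 at 240 min, and 138, 129 and 116 in fasted livers. From 60 min on, the refed libraries lay above those of both other groups of that time, and at 30 min 1 caged food library was as high as the highest refed one. Against fasted livers the log2 fold change was 1.24 ± 0.17 at 60 min (adjusted p = 3.63e-05), 0.69 ± 0.17 at 120 min (0.00879) and 1.01 ± 0.17 at 240 min (0.000158). It was 1.31, 0.58 and 1.09 against caged food livers, with adjusted p of 1.81e-05, 0.0308 and 5.88e-05. The call of 120 min against caged food livers was lost without refed 120 min replicate 1 (0.123), replicate 2 (0.0580) or replicate 3 (0.0555), or without caged 120 min replicate 2 (0.204). Of its stretches of 51 bases 51.01% are unique, and it holds Snora65.

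Rpl10a forms the L1 stalk beside the exit site and lies at chr17:28328471-28331033. Its values were 478, 621 and 457 in refed livers of 30 min, 1097, 796 and 605 at 60 min, 668, 460 and 583 at 120 min, and 665, 706 and 628 at 240 min. They were 388, 373 and 410 in caged food livers of 30 min, 236, 329 and 384 at 60 min, 437, 318 and 501 at 120 min, and 275, 364 and 305 at 240 min, and 376, 311 and 352 in fasted livers. The refed libraries lay above the fasted ones at each time and overlapped the caged food ones at 120 min alone. Against fasted livers the log2 fold change was 1.23 ± 0.20 at 60 min (adjusted p = 0.000184), 0.71 ± 0.20 at 120 min (0.0186) and 0.94 ± 0.20 at 240 min (0.00114). Against caged food livers it was 1.38 at 60 min (5.21e-05) and 1.09 at 240 min (0.000248). The call of 120 min was lost without refed 120 min replicate 1 (0.0922), refed 120 min replicate 3 (0.0603) or fasted replicate 2 (0.0840). Of its stretches 22.6% are unique, and 65.9% of its annotated exon bases lie outside protein-coding transcripts.

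**Figure D4:**
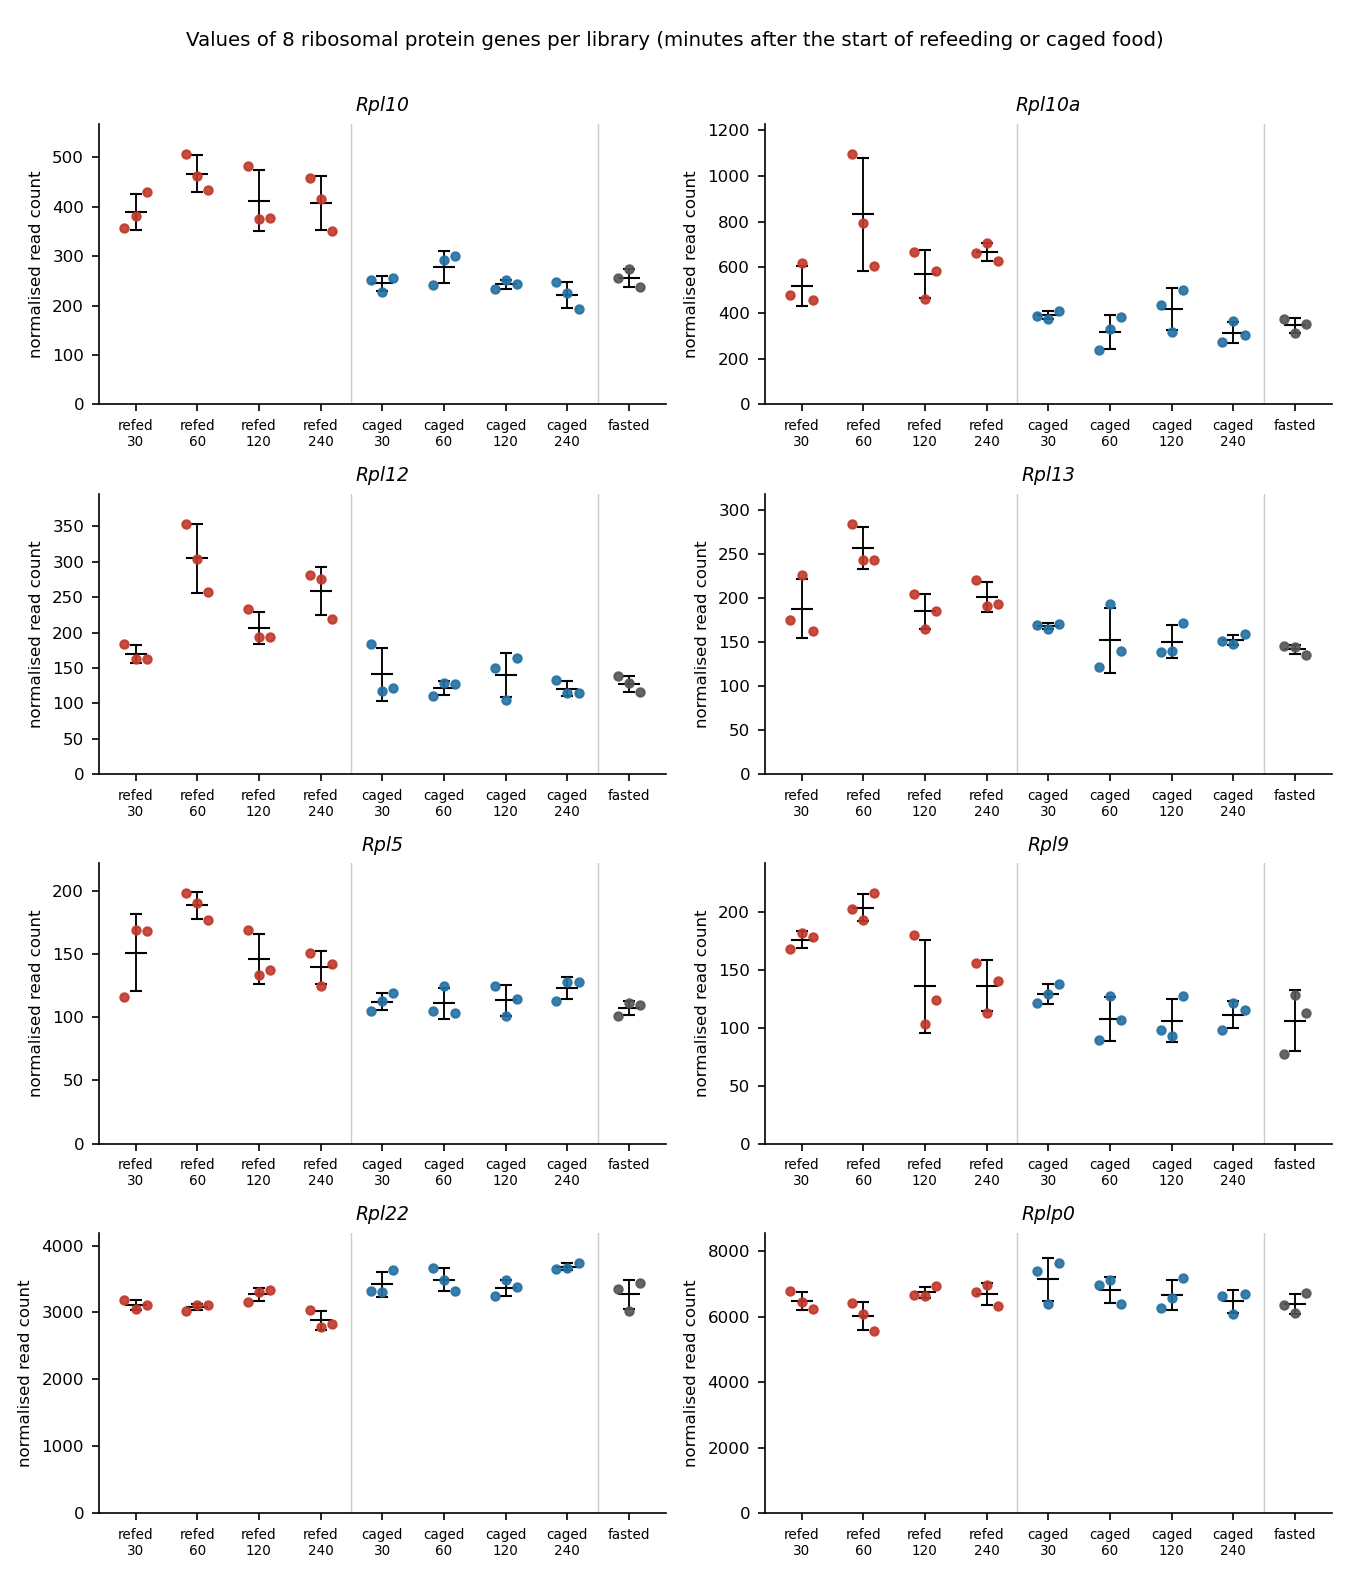
Normalised read counts of 8 members in each library (points), with mean and SD of 3 libraries (bars), in refed, caged food and fasted groups with times in min. Rpl10 is higher in all refed libraries, Rpl10a and Rpl12 are highest at 60 min, Rpl22 is lowest in refed livers of 240 min, and Rplp0 shows no group apart.

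Rpl13 and the 5S particle protein Rpl5 also rose at 60 min. Rpl13 had 285, 243 and 244 in refed livers of 60 min, 122, 194 and 140 in caged food livers of 60 min and 146, 144 and 136 in fasted livers. All refed libraries of 60 min were the highest. Its log2 fold change was 0.85 ± 0.15 against fasted livers (adjusted p = 0.000360) and 0.78 ± 0.15 against caged food livers (0.000968). At 240 min it had 221, 191 and 193 in refed livers, 151, 148 and 159 in caged food livers and the above values in fasted livers, again without overlap. That was a log2 fold change of 0.50 ± 0.15 against fasted livers (0.0148) and of 0.40 ± 0.15 against caged food livers (0.0478). The call against fasted livers was lost without refed 240 min replicate 1 (0.0784) or fasted replicate 3 (0.0542). The call against caged food livers was lost without any 1 of the 6 libraries compared, with adjusted p from 0.0662 without refed 240 min replicate 3 to 0.177 without refed 240 min replicate 1.

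Rpl5 and Rpl11 bind 5S ribosomal RNA together and, when not used in ribosomes, the p53 regulator Mdm2. Rpl5 had 198, 190 and 177 in refed livers of 60 min, 105, 125 and 103 in caged food livers of 60 min and 101, 111 and 110 in fasted livers. The refed libraries lay apart from both other groups. Its log2 fold change was 0.81 ± 0.14 against fasted livers (adjusted p = 0.000484) and 0.76 ± 0.14 against caged food livers (0.000957), and both calls held without any 1 library. At 120 min it had 169, 133 and 137 in refed livers, and the rise of 0.44 ± 0.14 against fasted livers (0.0434) was lost without any 1 of the 6 libraries, with adjusted p from 0.0517 to 0.192. Rpl11 had 129, 84 and 84 in refed livers of 60 min and 58, 62 and 61 in caged food livers of 60 min. The refed libraries were higher, with 1 far above the others, and the log2 fold change of 0.68 ± 0.18 (0.0135) was lost without that library, refed 60 min replicate 1 (0.117).

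Rpl9, near the landing site of translation factors, was called earliest beside Rpl10. It had 168, 182 and 178 in refed livers of 30 min, 202, 193 and 216 in refed livers of 60 min, 89, 127 and 107 in caged food livers of 60 min and 77, 128 and 113 in fasted livers. The refed libraries of both times lay above the others named. The log2 fold change against fasted livers was 0.76 ± 0.20 at 30 min (adjusted p = 0.0475) and 0.97 ± 0.20 at 60 min (0.00164), and that against caged food livers of 60 min was 0.93 ± 0.20 (0.00265). The call of 30 min was lost without refed 30 min replicate 1 (0.109), 2 (0.189) or 3 (0.118), or without fasted replicate 1 (0.254) or 3 (0.109). The calls of 60 min held without any 1 library. Its transcript is unique in 6.69% of its stretches, and 9 annotated pseudogenes bear its name.

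Rpl3, whose protein reaches towards the peptidyl transferase centre, rose at 240 min. It had 799, 795 and 711 in refed livers, 606, 486 and 473 in caged food livers of 240 min and 530, 586 and 646 in fasted livers. The refed libraries lay above both. The log2 fold change was 0.56 ± 0.13 against caged food livers (adjusted p = 0.00169), held without any 1 library, and 0.39 ± 0.13 against fasted livers (0.0264). The call against fasted livers was lost without refed 240 min replicate 1 (0.0926) or 2 (0.0776), or fasted replicate 1 (0.122) or 2 (0.0634). With the treatment label at 240 min both calls of Rpl3 were lost.

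Further large subunit genes were called with weaker support. Rpl28 had 119, 122 and 77 in refed livers of 60 min, 63, 67 and 61 in caged food livers and 66, 61 and 76 in fasted livers, so that its lowest refed value was 1 above the highest fasted one. Its log2 fold change was 0.70 ± 0.20 against caged food livers (adjusted p = 0.0255), lost without refed 60 min replicate 1 (0.116) or 2 (0.107), or caged 60 min replicate 1 (0.0657) or 3 (0.0639). It was 0.62 ± 0.20 against fasted livers (0.0493), lost without refed 60 min replicate 1 (0.167) or 2 (0.18) or any 1 fasted library (0.0647 to 0.176). At 240 min, Rpl27 averaged 146 ± 7.55 in refed and 98.0 ± 20.7 in caged food livers, with a log2 fold change of 0.59 ± 0.17 (0.0133), lost without caged 240 min replicate 2 (0.103). Rpl21 averaged 94.3 ± 8.08 in refed and 66.7 ± 6.43 in caged food livers of 240 min, with 0.50 ± 0.17 (0.0334). It was lost without refed 240 min replicate 1 (0.106) or 3 (0.0892), or caged 240 min replicate 1 (0.110) or 3 (0.0885).

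Of the 17 members called higher at a single time, 11 belong by symbol to the large subunit and the others, Rps4l among them, to the small subunit. Rps27a encodes a fusion of ubiquitin with a small subunit protein. It had 141, 136 and 159 in refed livers of 60 min, against 66, 96 and 89 in caged food livers, without overlap. Its log2 fold change was 0.80 ± 0.21 (adjusted p = 0.0129), lost without refed 60 min replicate 3 (0.0534) or caged 60 min replicate 1 (0.0828). Rps12 had 57, 61 and 55 in refed livers of 60 min, 38, 34 and 34 in caged food livers and 36, 30 and 34 in fasted livers. Its refed libraries were the highest, with a log2 fold change of 0.78 ± 0.22 against fasted livers (0.0224) and 0.69 ± 0.22 against caged food livers (0.0435). The first was lost without refed 60 min replicate 1 (0.0506) or 2 (0.0690), or fasted replicate 2 (0.0985) or 3 (0.0599). The second was lost without any 1 of the 6 libraries (0.0693 to 0.109).

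Rps6 and Rps29 were called at 240 min against caged food livers on low values. Rps6 had 31, 40 and 23 in refed livers and 19, 26 and 10 in caged food livers, so that the groups overlapped. Its log2 fold change of 0.80 ± 0.29 (adjusted p = 0.0432) was lost without refed 240 min replicate 1 (0.102) or 2 (0.187), or caged 240 min replicate 1 (0.0648) or 3 (0.290). At 60 min it had 41, 38 and 42 in refed and 20, 21 and 23 in fasted livers, with 0.89 ± 0.29 (0.0504), which did not pass. Rps29 had 12, 16 and 23 in refed and 8, 6 and 3 in caged food livers of 240 min, without overlap, a log2 fold change of 1.46 ± 0.40 (0.00773). It was lost without caged 240 min replicate 3 (0.0571).

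Rps4l, listed under a symbol of the family, has no protein-coding transcript in GENCODE M21. It had 859, 755 and 720 in refed livers of 60 min and 779, 900 and 603 in refed livers of 120 min, against 291, 523 and 579 in fasted livers. The refed libraries were higher than all fasted ones, and the fasted libraries spread widely. The log2 fold change was 0.80 ± 0.25 at 60 min (adjusted p = 0.0404) and 0.75 ± 0.25 at 120 min (0.0466). Without fasted replicate 1 the adjusted p was 0.259 at 60 min and 0.281 at 120 min. The call of 60 min was also lost without fasted replicate 2 (0.0510) or any 1 refed library (0.0739 to 0.118), and that of 120 min without fasted replicate 2 (0.0549) or refed 120 min replicate 1 (0.109) or 2 (0.179).

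Falls were small and lay among members with high values. Rpl22, a large subunit protein that most cells can do without and that mice need mainly for T cell development, had 3041, 2782 and 2828 in refed livers of 240 min. It had 3643, 3662 and 3741 in caged food livers of 240 min and 3355, 3019 and 3438 in fasted livers. The refed libraries lay well below the caged food ones and overlapped the fasted ones. It fell by 0.35 ± 0.06 on the log2 scale against caged food livers (adjusted p = 0.000104), held without any 1 library. Against fasted livers it fell by 0.18 ± 0.06 (0.0294), which was lost without refed 240 min replicate 2 (0.109) or 3 (0.0834), or fasted replicate 1 (0.105) or 3 (0.144).

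Rps27l, a paralog of Rps27 induced by p53, averaged 1902 ± 51.6 in refed and 2296 ± 86.9 in caged food livers of 240 min. It fell by 0.27 ± 0.09 (adjusted p = 0.0362), which was lost without any 1 of the 6 libraries (0.0560 to 0.122). Its parent Rps27 averaged 42.6 over the 27 libraries and was called nowhere. At 60 min Rps9, at the entry of the mRNA channel, averaged 4568 ± 156 in refed and 5340 ± 370 in caged food livers and fell by 0.22 ± 0.07 (0.0362). Rpl26, next to the exit of the tunnel, averaged 1001 ± 34.3 and 1219 ± 100 in the same groups and fell by 0.28 ± 0.08 (0.0244). With every library scaled to the same total these 3 falls were not called, and of the falls at a single time that of Rpl22 against caged food livers alone remained called, at -0.30. With the treatment label at 240 min the value of Rpl22 there was -0.11 and not called. The call of Rps9 was lost without refed 60 min replicate 2 (0.111) or 3 (0.0781), or caged 60 min replicate 1 (0.124) or 2 (0.128). That of Rpl26 was lost without refed 60 min replicate 3 (0.0836), or caged 60 min replicate 1 (0.110) or 2 (0.0832).

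Averaged over the 4 times, refed differed from caged food livers in 23 members. Of these 15 rose (19.2%, against 17.3% of all genes tested) and 8 fell (10.3%, against 14.1%). The rises were led by Rps29 at 0.90 ± 0.20, Rpl10a at 0.83 ± 0.10, Rpl12 at 0.82 ± 0.09 and Rpl10 at 0.76 ± 0.06 on the log2 scale (n = 12 each). That of Rps29 rests on low rounded values, with a mean of 11.3, a range of 3 to 23 and 15 of 27 libraries at 10 or more. The falls included Rpl22 at -0.18 ± 0.03, Rps14 at -0.13 ± 0.04 and Rps21 at -0.13 ± 0.04. Against fasted livers 7 members rose (8.97%, the same share as the 8.97% of all genes), among them Rpl10, Rpl10a, Rpl12, Rpl13, Rpl5 and Rpl9. None fell (5.98% of all). The call of Rpl9 was lost without fasted replicate 1 (adjusted p = 0.137). With the treatment label at 240 min 2 members rose against fasted livers, and 10 rose and none fell against caged food livers.

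In the average comparison with caged food livers, rises lay among members of low and falls among members of high level. Of the 42 members with a mean under 700 normalised read counts, 15 rose and none fell. Of the 36 members with a mean of 700 or more, none rose and 8 fell, and 33 had a log2 fold change below 0, with a median of -0.08. This border was chosen after the values were seen, and the calls of all genes in the same ranges of level are not given here. Over the 27 libraries the median SD of log2 values was 0.30 in the 42 members and 0.11 in the 36. Falls as small as those called in high members could therefore be missed in low ones. With every library scaled to the same total, 2 of the 36 rose and 1 fell, and 20 were below 0, with a median of 0.00 where all genes had 0.06. With quantile normalization 8 of the 36 fell and 34 were below 0, with a median of -0.09 where all genes had -0.01. With median ratios taken without ribosomal protein genes 8 fell and 33 were below 0. The falls of high members were therefore mostly lost with the same total and kept with either of these scalings. Measured from the median of all genes, the median of the 36 was -0.063 as deposited, -0.062 with the same total and -0.078 with quantile normalization. At 120 min none of the 36 was called, and 27 were above 0 against caged food livers (median 0.05) and 31 against fasted livers (median 0.07). In the average against fasted livers none of the 36 fell, with 25 below 0 and a median of -0.02. Without 3 libraries in which marker sums stood apart, 4 members fell and 16 rose. High members were also steady: over the 27 libraries their median SD of log2 values was 0.11, against 0.16 for all 6544 genes with a mean of at least 700. The steadiest were Rps2 (SD 0.081), Rps18 (0.0826) and Rpl4 (0.0883), and the most variable were the low members Rps13 (0.67), Rpl3l (0.645) and Rps29 (0.623).

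**Figure D5:**
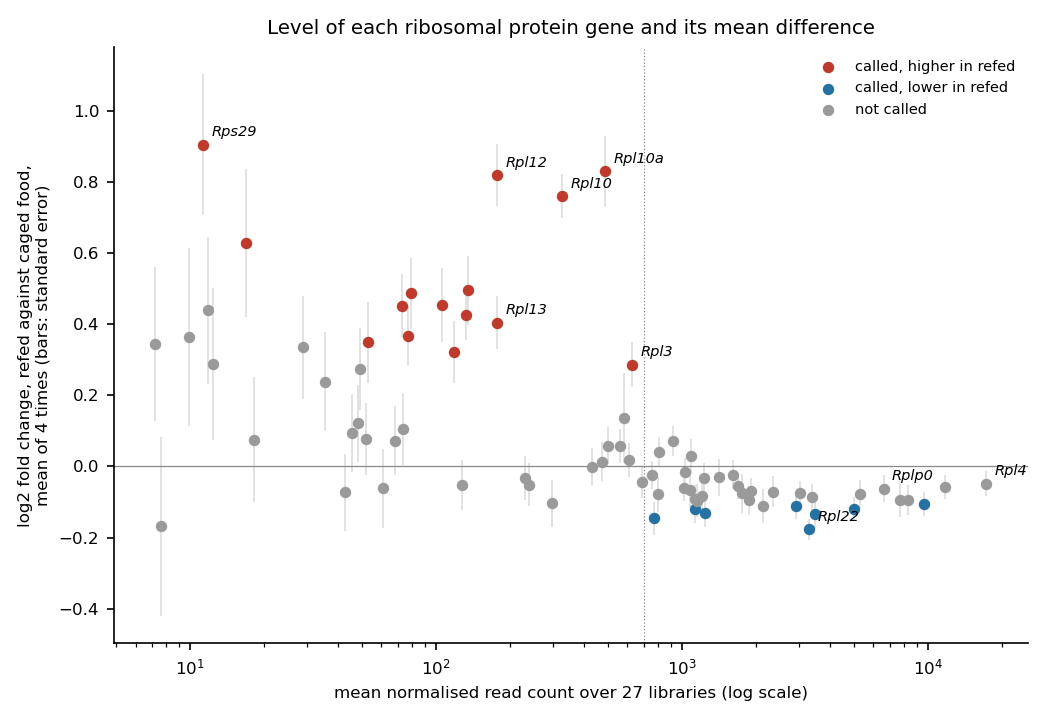
Log2 fold change of refed against caged food livers, averaged over 4 times (points, with SE bars), against the mean normalised read count of each of the 78 members (log scale); the dotted line marks 700. Called rises lie left of the line and called falls right of it at -0.18 or above.

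The members that rose had a lower median of unique sequence than the others. The 17 members called higher at a single time had a median of 25.3% unique stretches, against 71.8% in the 4 called lower and 52.5% in the 57 never called. Rps4l, one of the 17, has no such value and is left out of that median. The share of annotated exon bases outside protein-coding transcripts had medians of 51.2%, 30.0% and 38.5% in the same order. Such bases belong to transcript models of the same gene that are not annotated as protein-coding. A snoRNA gene lay inside 7 of the 17, none of the 4 and 21 of the 57. The sets also differed in level, with a median of the mean normalised read count of 118 in the 17, 2708 in the 4 and 804 in the 57. Unique sequence was, as given above, lower in members of low than of high level. The part of these features and of the level in the rises was not tested.

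Rplp0 and Rpl13a, often used as reference genes, did not pass the test in any comparison. Rplp0, the core of the acidic stalk, averaged 6494 ± 268, 6025 ± 428, 6754 ± 174 and 6698 ± 333 in refed livers of 30, 60, 120 and 240 min, against 6404 ± 311 in fasted livers. Its log2 fold changes in refed against fasted livers lay between -0.09 and 0.08, each with an SE of 0.08. Rplp1 and Rplp2, its dimer partners, lay between -0.11 and 0.09 and between -0.11 and 0.16 in the same comparisons. Rps19, a small subunit protein known from Diamond-Blackfan anaemia, lay between -0.08 and 0.07. Rpl13a, which leaves the ribosome on interferon signalling, lay between -0.18 and 0.11. Rps4x, encoded on the X chromosome, lay between -0.11 and 0.04, and Rpl32 between -0.12 and 0.11. A p above the threshold does not show that these genes were unchanged. Against caged food livers of 30, 60, 120 and 240 min, Rpl13a had log2 fold changes of -0.23, -0.27, 0.05 and 0.08. Those of Rplp0 were -0.13, -0.18, 0.02 and 0.05 in the same order.

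The course over time was tested as the variation of the refed minus caged food difference over the 4 times, with limma's F test. Of 78 members 2 passed (2.56%, against 9.97% of all genes), Rpl12 and Rpl10a. Their log2 differences at 30, 60, 120 and 240 min were 0.29, 1.31, 0.58 and 1.09 for Rpl12 (adjusted p = 0.0234) and 0.40, 1.38, 0.45 and 1.09 for Rpl10a (0.0425). For both genes the difference was largest at 60 min. Neither passed without the 3 libraries whose marker sums stand apart, refed 30 min replicate 1, caged 30 min replicate 1 and caged 60 min replicate 2 (0.0524 for Rpl12 and 0.104 for Rpl10a), or with the treatment label at 240 min (0.534 and 0.531). For Rpl10 the differences were 0.67, 0.75, 0.75 and 0.87 in the same order, with an adjusted p of 0.839.

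For caged food alone no member was called at any time by limma. Against fasted livers 0 of 78 were called at 30, 60, 120 and 240 min, beside 0.0126%, 0.220%, 0.0377% and 0% of all genes tested, and 0 in the average over the times (0% of all). At an unadjusted p under 0.05 there were 9, 2, 1 and 3 of 78 members, and 3 in the average. Of all 15932 genes 1123, 1569, 1226 and 752 were under it at these times, and 645 in the average. The median log2 fold changes of the members were 0.08, 0.04, 0.03 and 0.01. At 30 min 61 of 78 members were above 0. The lowest unadjusted p there was that of Rps12, which had 55, 47 and 60 in caged food livers of 30 min and 36, 30 and 34 in fasted livers. The groups did not overlap, and the log2 fold change of 0.68 ± 0.22 had an adjusted p of 0.473. At 240 min Rpl22 had a log2 fold change of 0.17 ± 0.06 (adjusted p = 0.994).

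Among ribosomal protein genes outside the symbol rule, 6 of 7 entries were tested. Rpl7l1, a paralog of Rpl7 that acts in assembly, rose in refed against fasted livers by 0.33 ± 0.08 at 60 min (adjusted p = 0.00466), 0.47 ± 0.08 at 120 min (0.000162) and 0.54 ± 0.08 at 240 min (1.6e-05) on the log2 scale. Rpl36al rose by 0.40 ± 0.12 at 240 min (0.0150). Fau, which encodes a fusion with a ubiquitin-like protein, and Rack1 did not pass in any comparison. Of 18 other mRNAs known for a TOP start, such as those of elongation factors, 2, 3 and 3 fell in refed against fasted livers of 60, 120 and 240 min, beside 3.75%, 6.13% and 11.4% of all genes, and 1 rose at 240 min (12.9% of all). Eef2, the translocation factor, fell by 0.42 ± 0.09 at 60 min (0.00208) and Eif4b, an initiation factor, by 0.66 ± 0.09 at 240 min (6.44e-06).

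Of 43 ribosome biogenesis factors, none was called in refed against fasted livers of 30 min. At an unadjusted p under 0.05 there were 5, beside 1812 of all 15932 genes. In refed livers of 60, 120 and 240 min, 21, 26 and 28 rose, and 1 fell at each time. Of all genes tested 7.26%, 7.95% and 12.9% rose and 3.75%, 6.13% and 11.4% fell there. The medians of the factors at these 3 times were 0.36, 0.42 and 0.41 on the log2 scale. Nop56, a core protein of box C/D snoRNPs, rose by 1.10 ± 0.13 at 60 min (adjusted p = 5.94e-06). Rcl1, which cuts the ribosomal RNA precursor in yeast, was the one that fell, by 0.32 ± 0.06 at 60 min. In refed against caged food livers of these times 20, 15 and 31 rose, beside 6.73%, 5.98% and 14.6% of all genes. Of 6 chaperones of single ribosomal proteins, 1, 3, 3 and 3 rose against fasted livers at 30, 60, 120 and 240 min, beside 1.31%, 7.26%, 7.95% and 12.9% of all genes. Rrs1, which brings the 5S particle to the large subunit, rose by 0.49 ± 0.10 at 30 min (0.0130) and by 0.97 ± 0.10 at 60 min (1.52e-06). Heatr3, the homolog of the yeast factor that brings in the 5S particle proteins, rose by 0.25 ± 0.08 at 60 min (0.0321), by 0.40 ± 0.08 at 120 min (0.000823) and by 0.54 ± 0.08 at 240 min (1.67e-05). In caged food against fasted livers neither list had a call. At an unadjusted p under 0.05 there were 2, 1, 12 and 2 of 43 biogenesis factors and 0, 0, 1 and 0 of 6 chaperones. Of all 15932 genes 1123, 1569, 1226 and 752 were under it, in the same order of times. The difference between lists was not tested.

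Other cell types were followed by marker sums. Of 9 hepatocyte markers in the table, the sum was 4422545 to 7430052 normalised read counts over all libraries. The highest was in caged 60 min replicate 1, which also had the highest total, and the next highest was 6209539. This library was kept among the 24 others below. In 3 libraries other sums stood apart from the 24 others. Refed 30 min replicate 1 had 6010 for 10 exocrine pancreas markers, against 309 to 684, and Amy2a5 among them was at 0 in every library. Caged 60 min replicate 2 had 33560 for 8 Kupffer cell markers, against 12234 to 21463, and 6950 for 10 leukocyte markers, against 2319 to 4232. Caged 30 min replicate 1 had 33893 for 8 sinusoidal endothelium markers, against 19979 to 27703, and 1227 for 5 adipocyte markers, against 263 to 853. The adipocyte sum of 853 was that of caged 120 min replicate 3, and the next highest of the 24 was 458. Without these 3 libraries 10 members were called in refed against fasted livers of 60 min and 9 at 240 min, and none against caged food livers of 30 min. Some markers moved with refeeding. The endothelium sums were 19979 to 20630 in refed livers of 240 min, below 22850 to 23705 in caged food livers of 240 min and 22572 to 25645 in fasted livers. Of the 8 endothelium markers 3 fell against caged food livers at 240 min and in the average over the times, Oit3, Fcgr2b and Kdr, 1 fell at 120 min, and 2 fell against fasted livers at 240 min. Of all genes tested 12.4%, 14.1%, 5.30% and 11.4% fell in these comparisons, in this order. Among the leukocyte markers Ms4a1, a B cell gene, fell in the average against caged food livers and at 60 min against both groups. At 60 min 4.18% of all genes fell against caged food and 3.75% against fasted livers. In the average against caged food livers 1 of 7 stellate cell markers, Des, fell and 1 of 5 tested cholangiocyte markers, Sox9, rose. Of all genes 14.1% fell and 17.3% rose in that average. Sox9 also rose at 120 min against fasted livers (7.95% of all genes) and, with Krt19, at 240 min against caged food livers (14.6% of all). The stellate cell marker Reln fell at 240 min against fasted livers (11.4% of all). No Kupffer cell marker was called in any comparison. At an unadjusted p under 0.05 there were 2 of 8 at 60 min against caged food livers, beside 3825 of all 15932 genes. The part of these marker genes in the changes of the members was not tested. In whole tissue, fewer cells of a type and less RNA per cell cannot be told apart.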

How the data were processed

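The authors deposited one table with a score for each gene and library: read counts divided by a scaling factor per library and rounded, here called normalised read counts. Per the labels and the submitters' processing notes, mRNA of liver was sequenced with a stranded kit, aligned to mm10 (GRCm38) with STAR 2.4.0a and counted with featureCounts 1.4.5-p1. The depth in reads per library is not given in the sources used here, and totals of the scores were 40654573 to 50037562. Libraries were grouped by title. Genes with at least 10 in at least 3 libraries were fitted as log2(value + 1) with limma 3.58.1 (R 4.3.3, mean-variance trend), over 9 group means of 27 libraries. Within each comparison the Benjamini-Hochberg adjustment covered all 15932 genes. The fit was checked on simulated data. Identifiers were matched to GENCODE M21 for 45143 genes (98.8%). Start sites and promoters are RefSeq's, GRCm38.p6. Low values are coarse because of the rounding, and this limits members with means near 10.

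The rule for named members took the 5 largest called rises and falls per comparison at a single time, those of highest, lowest, most or least variable values, paralogs, those at the limit on values, those that varied over time and a fixed panel. Of other lists it took the 2 genes of lowest p. Some genes that the rule takes are not reported here. Members called beyond it were named after their values were seen. The members and lists were chosen with earlier results of these data known. The alternatives were another scaling, pseudocount or filter, quality weights, a replicate block, only the groups compared, and libraries left out or regrouped. Scripts used Python 3.11.15, numpy 2.4.6, pandas 2.3.3 and matplotlib 3.10.9.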

Additional observations from a re-analysis of the deposited data

Results flagged for a closer look

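By limma's F test, 2 of 78 members had a refed minus caged food difference that changed over the 4 times, against 9.97% of all genes tested. These are Rpl12 and Rpl10a. For Rpl12 the log2 difference was 0.29 at 30 min, 1.31 at 60 min, 0.58 at 120 min and 1.09 at 240 min (adjusted p = 0.0234). It stayed under 0.05 when each library was left out in turn, with adjusted p from 0.00814 to 0.0493. It was lost without the 3 libraries standing apart (0.0524) and with the treatment label at 240 min (0.534). For Rpl10a it was 0.40, 1.38, 0.45 and 1.09 in the same order (adjusted p = 0.0425). Its call was lost in 17 of 24 fits without 1 library, with adjusted p from 0.0134 to 0.0862, and it was 0.104 and 0.531 under these same alternatives. Values per library for both genes stand above.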

How the results depend on the processing

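Counts of called members moved by over 1.5 times as follows. In refed against fasted livers of 30 min (2 called) there was 1 with quantile normalization, without the filter on low values, with the replicate block, with only the groups compared and without the 2 libraries of conflicting labels, 4 with array quality weights and 0 with the treatment label at 240 min. At 120 min (5 called) there were 3 with quantile normalization, without the filter and with only the groups compared, 12 with every library scaled to the same total, 15 with quality weights and 1 with the treatment label. At 240 min (7 called) there were 0 with the treatment label. Against caged food livers of 30 min (1 called) there were 0 with only the groups compared, with the treatment label and without the 3 libraries standing apart. At 60 min (12 called) there were 4 with only the groups compared. At 120 min (2 called) there were 6 with the same total, 7 with quality weights and 1 without the filter, with only the groups compared and with the treatment label. At 240 min (12 called) there were 7 without the filter and 0 with the treatment label. Over the 4 times there were 11 with the same total, 15 with quality weights and 2 with the treatment label against fasted livers (7 called), and 10 with the treatment label against caged food livers (23 called). For the variation over time (2 called) there were 4 with the same total, 1 without the filter, with the block, with only the groups compared and without the 2 conflicting libraries, and 0 with the treatment label and without the 3 libraries standing apart. Causes were not tested.

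Leaving out 1 library gave 0 to 2, 7 to 9, 2 to 6 and 4 to 6 calls against fasted livers at 30, 60, 120 and 240 min, and 0 to 1, 7 to 17, 1 to 3 and 7 to 10 against caged food livers. It gave 6 to 8 and 21 to 28 in the averages against fasted and caged food livers, 1 to 3 for the variation over time and 0 in each caged food comparison. Of 75 calls of single members, 31 stayed with the treatment label and 44 were lost, each in the same direction. The same-number libraries did not deviate together (mean correlation -0.00944 over 108 pairs, 7 over 0.1, and 8 of 27 libraries closest to their own number), and with the replicate block 69 of 75 calls stayed. Rounded low values limit the members with means near 10. Alternatives were run for members and not for other genes.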
